A study of Sus scrofa with 6 samples.

Results

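The genes described here carry glucose into the cell and convert it to lactate: the glucose transporters SLC2A1 and SLC2A3, and the enzymes HK1, HK2, PFKL, ALDOA, PGK1, PKM, LDHA and LDHB. They were taken by gene symbol from the annotation of the array, and 8 of the 10 genes had a probe set with that symbol alone, 9 probe sets in all. The whole table held 6765 named genes and 23999 tested probe sets. HK2 and ALDOA had no such probe set and were not measured here. PKM had 2 probe sets and each of the other genes had 1.

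Expression was measured on Affymetrix porcine arrays in 2 untreated pig cell lines, with 3 arrays for each line. OBGF400 is a line of olfactory bulb neuroblast origin, and PK15 is a line that its label calls non-neuronal and epithelial. RNA of 9 cultures per line was combined into 3 pools, and 8 µg of each pool was labelled. OBGF400 grew in DMEM/F12/HAM and PK15 in minimum essential medium with amphotericin B, both with 10% bovine calf serum, penicillin, streptomycin and gentamicin, so the effects of line and medium cannot be told apart. Each line is a single line, so p-values measure the spread between pools and not between animals.

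Glucose enters most cells through facilitative carriers of the SLC2A family. SLC2A1 (GLUT1) is the carrier of many growing cells and of the blood-brain barrier, and SLC2A3 (GLUT3) is a high-affinity carrier known from neurons. Hexokinase traps glucose as glucose 6-phosphate, phosphofructokinase commits it to glycolysis, and aldolase splits the sugar. Phosphoglycerate kinase and pyruvate kinase each form ATP. Lactate dehydrogenase then reduces pyruvate to lactate, with LDHA and LDHB as the subunits of its tetramers.

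The values are the authors' log2 signals, and every difference below is OBGF400 minus PK15 on that scale. Their lowest value, called the floor, was 2.13, and 25.8% to 27.3% of the values of each array lay on it. A gene is described as at the floor where all arrays of a line lay within 0.1 of it. A gene was called higher or lower where limma's adjusted p over all tested probe sets was under 0.05. Correlations over all tested probe sets, which are not independent replicates, were at least 0.996 among arrays of a line and at most 0.865 between the lines.

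Of the labelled cell types, 3 of 4 measured neural markers (NCAM1, UCHL1 and MAP2) were higher in OBGF400, while STMN2 was at the floor in both lines. DCX, TUBB3, NES, SOX2, PAX6 and DLX2 were not named in the annotation and were not measured here. All 6 epithelial markers were lower in OBGF400, with KRT18 and KRT19 at the floor there, and 4 of 5 mesenchymal markers were higher. The log2 of the summed mesenchymal signals was 15.6 to 15.7 in OBGF400 and 5.1 to 5.64 in PK15. Summed neural signals were 12.5 to 12.7 in OBGF400 and 4.66 to 4.89 in PK15. OBGF400 thus carried mesenchymal as well as neural markers. Summed epithelial signals were 4.99 to 5.15 in OBGF400 and 16.2 to 16.3 in PK15. Of the leukocyte markers, PTPRC and ITGAM were at the floor in both lines and CD14 was higher in OBGF400 (1 of 3 measured), with summed signals of 5.98 to 6.35 and 4.96 to 5.47. Of 4 endothelial markers, KDR and VWF were at the floor in both lines, PECAM1 only in OBGF400, and CDH5 was lower in OBGF400. Their summed signals were 4.14 to 4.19 in OBGF400 and 4.74 to 5.74 in PK15. Of the erythroid markers, ALAS2 was at the floor in both lines and HBB was higher in OBGF400, with summed signals of 10.1 to 10.3 against 9.14 to 9.61. The part of these differences in the results on glucose genes was not tested.

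Over the pathway, both glucose transporters were higher in OBGF400, 40.6-fold for SLC2A3 and 2.34-fold for SLC2A1. The phosphofructokinase subunit PFKL was 4.36-fold lower. The other measured enzymes among these genes differed by less than 2-fold and went both ways. LDHA was higher, PGK1 and LDHB were lower, and HK1 and PKM were not called. Of the 8 measured genes 3 were thus higher, 3 lower and 2 not called, where 22.7% of all named genes were higher and 35.4% lower. The median difference of the 8 genes was 0.02, against -0.002 over all named genes. For 7 of the 8 genes the 3 arrays of OBGF400 lay wholly above or wholly below those of PK15, as they did for 66.9% of all named genes. The shares over all 6765 named genes include 1047 at the floor in both lines, whereas none of the 8 genes was there. In bulk RNA a signal per cell and a share of cells with the signal cannot be told apart.

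**Figure D1:**
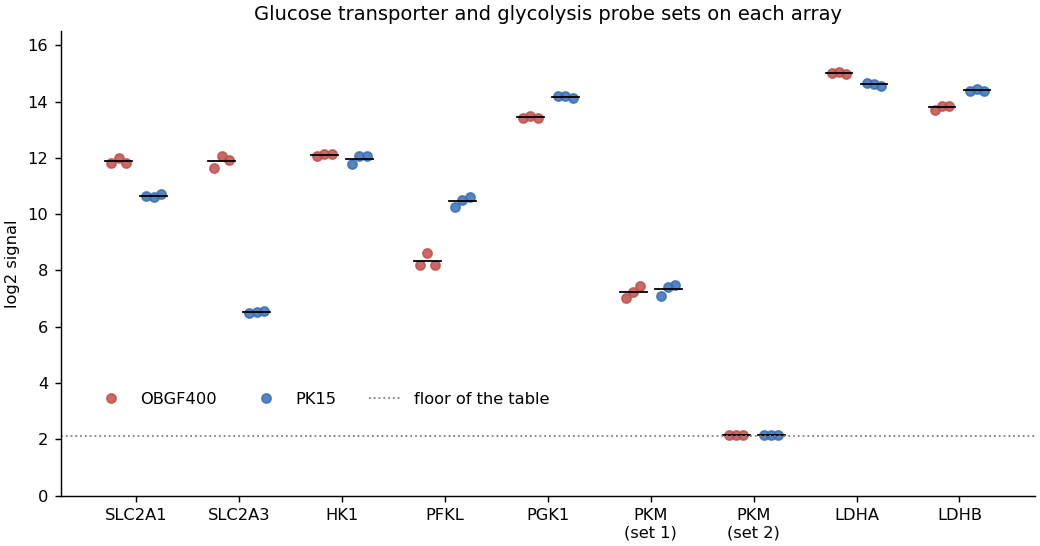
Log2 signal (y axis) of the 9 probe sets on each array, with 1 point per array, a black line at the mean of 3 arrays and a dotted line at the floor of 2.13. SLC2A3 and PFKL show the widest gaps between the lines, with PFKL turned the other way, and the second PKM probe set lies at the floor on all arrays.

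SLC2A3, the high-affinity carrier (Entrez Gene 100626468), had log2 signals of 11.62, 12.07 and 11.92 on the OBGF400 arrays and 6.48, 6.53 and 6.57 on the PK15 arrays. The highest PK15 array was far below the lowest OBGF400 array. The difference was 5.34 (SE 0.13, n = 3 arrays per line, limma adjusted p = 2.3e-05). Of the 6765 named genes, 134 had a larger rise. The PK15 signals lay above the floor, and with 32 added to the linear signals the difference was 4.93.

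SLC2A1, the widespread carrier (Entrez Gene 397404), had signals of 11.82, 11.99 and 11.83 in OBGF400 and 10.63, 10.61 and 10.72 in PK15. All OBGF400 arrays were above all PK15 arrays, by more than the spread within either line. The difference was 1.22 (SE 0.06, n = 3 per line, limma adjusted p = 0.000182). It was 0.37 and not called (adjusted p = 0.0915) under poly-A control scaling, in which arrays are set level on the spiked dap and thr transcripts.

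HK1, the hexokinase of many tissues (Entrez Gene 100152344), had signals of 12.07, 12.13 and 12.14 in OBGF400 and 11.79, 12.07 and 12.07 in PK15. The lines lay next to each other, with the lowest OBGF400 array just above the highest PK15 array. The difference of 0.14 was not called (95% interval -0.11 to 0.38, limma adjusted p = 0.361). The sign of HK1 follows the scaling, at 0.96 when arrays are set level on the hybridization controls and -0.72 on the poly-A controls, both called.

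PFKL, the liver-type phosphofructokinase subunit (Entrez Gene 100621757), had signals of 8.19, 8.61 and 8.21 in OBGF400 and 10.27, 10.51 and 10.60 in PK15. Each OBGF400 array was lower than each PK15 array. PFKL fell by 2.12 on the log2 scale (SE 0.16, n = 3 per line, limma adjusted p = 0.000668). It was called lower under both control scalings as well, at -1.30 and -2.98.

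PGK1, the first ATP-forming enzyme of the pathway (Entrez Gene 407608), had signals of 13.40, 13.49 and 13.42 in OBGF400 and 14.18, 14.18 and 14.13 in PK15. Each PK15 array was above each OBGF400 array. The difference was -0.73 (SE 0.03, n = 3 per line, limma adjusted p = 0.000136). After scaling on the hybridization controls it was 0.1 and not called.

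PKM (Entrez Gene 100158154) encodes the pyruvate kinase of most tissues except liver and red cells. Its brighter probe set had signals of 7.02, 7.24 and 7.45 in OBGF400 and 7.10, 7.41 and 7.50 in PK15, and the lines overlapped. The difference of -0.1 was not called (95% interval -0.54 to 0.34, limma adjusted p = 0.812), and it took the sign of the control scaling, at 0.72 and -0.95. The other probe set read 2.13 on all 6 arrays. The probe sets of PKM thus gave levels far apart within the same RNA, and neither separated the lines.

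LDHA, the subunit common in muscle and fast-growing cells (Entrez Gene 407245), had signals of 15.02, 15.06 and 14.98 in OBGF400 and 14.68, 14.61 and 14.56 in PK15. All OBGF400 arrays were higher, in a range near the highest values of the arrays, which were 15.89 to 16.1. The difference was 0.41 (SE 0.04, n = 3 per line, limma adjusted p = 0.00141). It was -0.45 after poly-A control scaling and 1.23 after hybridization control scaling, so its direction follows the scaling.

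LDHB, the subunit common in heart (Entrez Gene 100621540), had signals of 13.71, 13.83 and 13.86 in OBGF400 and 14.37, 14.46 and 14.37 in PK15. All OBGF400 arrays were lower. The difference was -0.6 (SE 0.05, n = 3 per line, limma adjusted p = 0.00097). Hybridization control scaling turned it to 0.22, not called.

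The control scalings moved the median difference of all named genes to 0.82 and -0.86, so for a gene to keep its direction under both it had to differ by more than this. SLC2A1, SLC2A3 and PFKL did. Of the 8 measured genes, 3 were called higher and 3 lower as deposited, 5 higher and 1 lower after hybridization control scaling, and 1 higher and 6 lower after poly-A control scaling. Of all called genes, 39.1% were higher as deposited, 28.4% after median centring, 78.1% after hybridization control scaling and 12.8% after poly-A control scaling. These shares also count genes at the floor in both lines, which a shift of whole arrays can turn into calls. All 7 of the array's own control sets for actin were higher in OBGF400. They differed by 0.05 and 0.35 at the 3′ end, by 0.53, 0.72 and 0.80 at the 5′ end, and by 0.19 and 3.65 in the middle. All 9 GAPDH control sets were lower, by -0.45 to -0.37 at the 3′ end, -0.43 to -0.13 at the 5′ end and -0.37 to -0.19 in the middle. In size the differences of LDHA and LDHB lay between the smallest and largest of these, whose part in them was not tested.

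**Figure D2:**
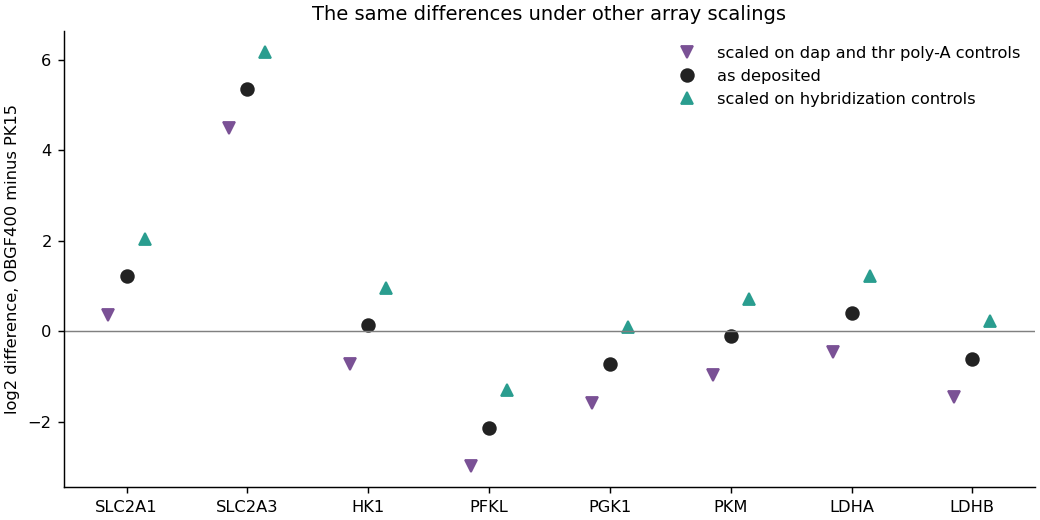
Log2 difference, OBGF400 minus PK15 (y axis), of the 8 probe sets above the floor, as deposited (circles) and after scaling each array on the hybridization controls (upward triangles) or on the poly-A controls dap and thr (downward triangles). SLC2A1 and SLC2A3 stay above 0 and PFKL below 0 under each scaling, while HK1, PGK1, PKM, LDHA and LDHB cross 0.

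Paralogs of a step were compared within each array, where any scaling of the array cancels. The value is the log2 signal of 1 paralog minus that of the other. Because probe sets differ in brightness, it shows unequal change between the lines and not which paralog is the more abundant. Of the 8 pairs listed, 4 could be compared. HK2, ALDOA and SLC16A1 had no named probe set, which left out 3 pairs, and ENO2 was at the floor in both lines. With 3 arrays against 3, the smallest two-sided exact permutation p is 0.1, and each of the 4 pairs gave that value (0.1 after Benjamini-Hochberg adjustment over the 4 pairs).

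For the glucose transporters, SLC2A3 minus SLC2A1 was -0.19, 0.09 and 0.09 on the OBGF400 arrays and -4.15, -4.07 and -4.15 on the PK15 arrays. The balance was thus shifted toward SLC2A3 in OBGF400 by 4.12 on the log2 scale, a 17.4-fold change of the ratio. The SDs were 0.16 and 0.04 (n = 3 per line), and the lines did not overlap. With 32 added to the linear signals the shift was 3.72.

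For lactate dehydrogenase, LDHA minus LDHB was 1.31, 1.23 and 1.13 in OBGF400 and 0.3, 0.15 and 0.19 in PK15. The shift toward LDHA in OBGF400 was 1.01, a 2.01-fold change of the ratio, with SDs of 0.09 and 0.08 (n = 3 per line). It was 0.96 to 1.06 when any single array was left out. The directions of LDHA and LDHB taken singly depended on the array scaling, whereas this ratio does not.

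For phosphofructokinase, PFKL was also compared with the muscle-type subunit PFKM and the platelet-type subunit PFKP. PFKM minus PFKL was 0.72, -0.03 and 0.37 in OBGF400 and -2.76, -3.13 and -3.02 in PK15, a shift of 3.32 toward PFKM. PFKP minus PFKL was 0.42, 0.26 and 0.22 in OBGF400 and -1.23, -1.16 and -1.18 in PK15, a shift of 1.49 toward PFKP. Both comparisons share PFKL and are not independent.

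PFKM itself had signals of 8.91, 8.58 and 8.57 in OBGF400 and 7.51, 7.38 and 7.58 in PK15. The PFKM difference was 1.2 (limma adjusted p = 0.00145, n = 3 per line), and 0.35, not called, after poly-A control scaling. PFKP was at 8.61, 8.87 and 8.43 against 9.04, 9.36 and 9.42, and differed by -0.63 (limma adjusted p = 0.0389, n = 3 per line). Leaving out OBGF400 replicate 1 (-0.62), OBGF400 replicate 3 (-0.53), PK15 replicate 2 (-0.59) or PK15 replicate 3 (-0.56) ended the PFKP call, and hybridization control scaling gave 0.19.

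**Figure D3:**
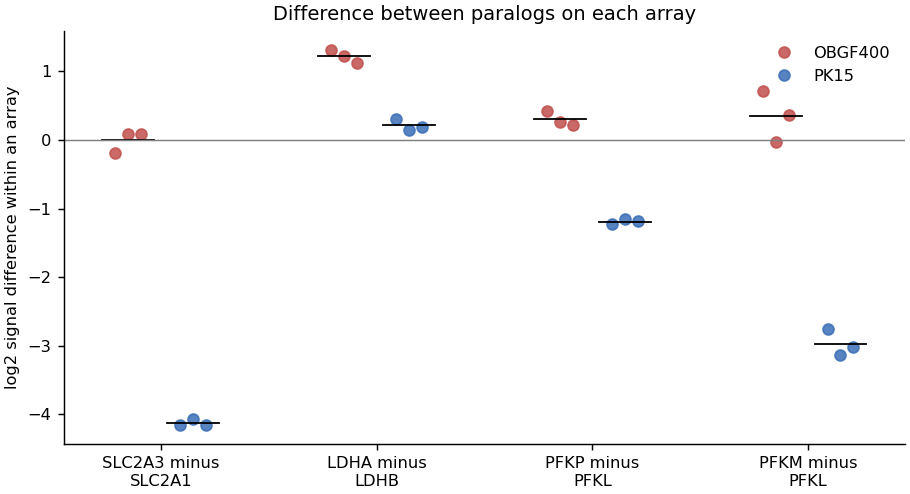
Log2 signal of the first named paralog minus that of the second on each array (y axis), for 4 pairs, with 1 point per array and a black line at the mean of 3 arrays. In each pair all OBGF400 arrays lie above all PK15 arrays, by the widest margin for SLC2A3 minus SLC2A1.

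Among the other enzymes of the pathway, 14 were measured, and their median difference was -0.0006, with 4 called higher and 4 lower. Over all named genes 22.7% were higher and 35.4% lower as deposited, the background for this list and those that follow. After hybridization control scaling, 4498 of the 6765 named genes were called higher and 1264 lower. After poly-A control scaling 763 were higher and 5221 lower. These are the background for the list counts under the control scalings, though they keep genes at the floor in both lines. Of the 12 genes of this list not at the floor in both lines, 8 were called higher and 2 lower after hybridization control scaling, and 1 higher and 8 lower after poly-A control scaling. GPI, which turns glucose 6-phosphate into fructose 6-phosphate, was lower (10.46 ± 0.07 against 11.99 ± 0.05, SD, n = 3, a difference of -1.54, limma adjusted p = 5.39e-05). BPGM, which makes the side product 2,3-bisphosphoglycerate, was lower (-2.29). ENO3, the muscle enolase, was higher by 4.01, or by 2.00 with 32 added, with 1 identical value of 2.99 on all PK15 arrays and 6.75 to 7.45 in OBGF400. HK3, a hexokinase known from blood cells, was higher by 0.86 from signals near the floor (0.21 with 32 added), and lost its call under poly-A control scaling (0.0008).

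ENO1, ALDOC, TPI1 and GAPDH differed by less than ENO3 and BPGM. ENO1, the common enolase, was higher by 0.45. In size this is below the median difference of all named genes under poly-A control scaling (-0.86), so its direction follows the scaling. ALDOC (0.18) and TPI1 (0.06) were not called, and their arrays overlapped. GAPDH had 5 tested probe sets, of which 2 were lower, 1 higher (0.41) and 2 not called. The brightest GAPDH set differed by -0.44, against 0.39 after hybridization control scaling. ENO2, the neuronal enolase, and PGK2, the testis form of phosphoglycerate kinase, were at the floor in both lines. ENO1, ENO2, PGK2, ALDOC and TPI1 fell outside the naming rule and were chosen after their values were seen. Whether probes read near-identical paralogs or pseudogenes, as is possible for GAPDH, PGK1 and LDHA, was not tested.

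The 8 other sugar and lactate carriers had a median difference of -0.15, and 2 were called higher and 2 lower. Of the 6 not at the floor in both lines, 5 were called higher and 1 was not called after hybridization control scaling, and 1 was higher and 4 lower after poly-A control scaling. SLC2A5, mainly a fructose carrier, had signals of 11.11, 11.61 and 11.24 in OBGF400 and 8.94, 8.90 and 8.75 in PK15. The SLC2A5 difference was 2.46 (limma adjusted p = 0.000365, n = 3 per line). Within the SLC2A family, SLC2A1, SLC2A3 and SLC2A5 were thus called higher in OBGF400 and SLC2A2 lower, while SLC2A8 (-0.29) and SLC2A12 (-0.32) were not called. SLC2A2, the carrier of liver and proximal tubule, was at 2.13 in OBGF400 and 2.92 in PK15, a difference of -0.78 (-0.12 with 32 added, and 0.04 after hybridization control scaling). SLC2A4, the insulin-responsive carrier, and SLC5A1, the sodium-coupled carrier, were at the floor in both lines.

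The lactate exporter SLC16A3 differed by -0.38 and its partner BSG by 0.58. Neither call was stable. That of SLC16A3 ended when OBGF400 replicate 1 (-0.34), OBGF400 replicate 3 (-0.4), PK15 replicate 1 (-0.35) or PK15 replicate 3 (-0.34) was left out, and the difference was 0.44 after hybridization control scaling. That of BSG ended when OBGF400 replicate 1 (0.55), OBGF400 replicate 2 (0.55) or PK15 replicate 2 (0.54) was left out, and the difference was -0.28 after poly-A control scaling. SLC2A4, SLC2A8, SLC2A12 and SLC5A1 were named after their values were seen.

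**Figure D4:**
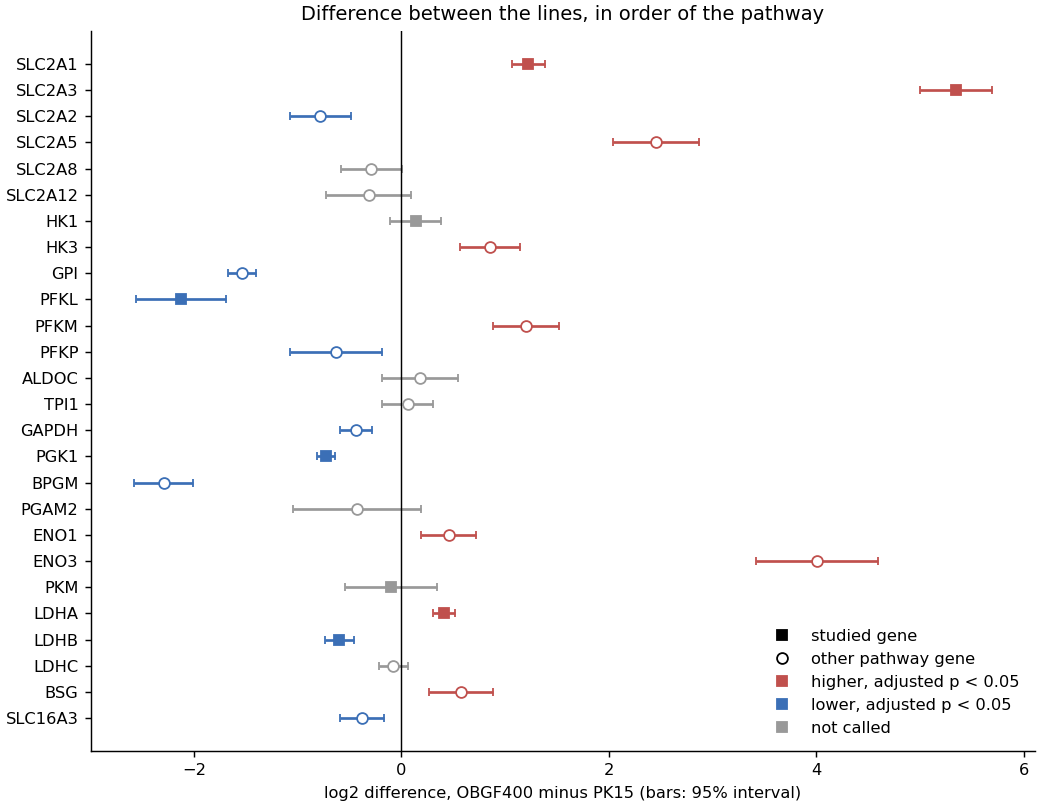
Log2 difference, OBGF400 minus PK15 (x axis, with 95% intervals of the limma fit), of genes ordered from uptake to lactate export. Squares are the 8 measured genes studied here and open circles are other carriers and enzymes not at the floor in both lines. Each is shown by its brightest probe set, and SLC2A2 and SLC2A12 were at the floor in OBGF400. SLC2A3, ENO3 and SLC2A5 lie farthest to the right, and BPGM, PFKL and GPI farthest to the left.

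Pyruvate that is not turned into lactate enters mitochondria through the carrier formed by MPC1 and MPC2 and is oxidized by pyruvate dehydrogenase. This branch had 11 measured genes with a median difference of -0.43, and 6 were called lower in OBGF400 and 1 higher, where 35.4% of all named genes were lower and 22.7% higher. MPC2 had signals of 10.55, 10.65 and 10.69 in OBGF400 and 12.82, 12.75 and 12.76 in PK15, a difference of -2.14 (limma adjusted p = 1.42e-05, n = 3 per line). PDHB, the beta subunit of pyruvate dehydrogenase, was at 10.21 to 10.30 in OBGF400 against 11.95 to 12.04 in PK15, a difference of -1.74 (limma adjusted p = 1.28e-05). PDP2, a phosphatase that activates the complex, differed by -1.74. PC, which carboxylates pyruvate to oxaloacetate, was the gene that was higher (1.7, limma adjusted p = 0.000175). Of the 10 genes not at the floor in both lines, the calls were 5 higher and 3 lower after hybridization control scaling. After poly-A control scaling they were 1 higher and 9 lower.

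The pentose phosphate pathway and other branches gave 14 measured genes with a median difference of 0.28, and 6 were called higher and 4 lower. Of the 13 genes not at the floor in both lines, 9 were called higher and 3 lower after hybridization control scaling. After poly-A control scaling 1 was higher and 8 lower, with a median of -0.50. SORD, which oxidizes sorbitol to fructose, had signals of 3.20, 3.17 and 3.46 in OBGF400 and 9.66, 9.75 and 9.61 in PK15. The SORD difference was -6.39 (limma adjusted p = 6.21e-06, n = 3 per line), or -4.34 with 32 added. The glycerol 3-phosphate dehydrogenases went apart, with the mitochondrial GPD2 higher by 3.03 and GPD1L lower (-2.36). PHGDH, the entry to serine synthesis, was lower (-1.68). TALDO1 of the pentose phosphate pathway (0.98) and UGP2, which makes UDP-glucose (0.84), were higher, and under poly-A control scaling they were at 0.12 and -0.01, not called.

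The 12 measured regulators of the pathway had a median difference of 0.21, and 5 were called higher and 4 lower. Of the 11 not at the floor in both lines, 7 were higher and 3 lower after hybridization control scaling, and 3 higher and 6 lower after poly-A control scaling. EPAS1 (HIF2-alpha), a hypoxia-inducible factor, had signals of 11.36, 11.32 and 11.16 in OBGF400 and 7.45, 7.05 and 7.47 in PK15, a difference of 3.96 (limma adjusted p = 7.37e-05, n = 3 per line). The arrestins TXNIP, which curbs glucose uptake, and ARRDC4 were higher by 3.53 and 2.11. TXNIP lay at 12.88 to 13.06 in OBGF400 and at 9.40 to 9.51 in PK15. MYC, a transcription factor that drives glycolytic genes, was lower (-1.68), as was the kinase subunit PRKAA2 (-1.67, or -0.34 with 32 added). The oxygen sensor EGLN1 was lower (-1.24) by 1 of its 3 probe sets, and the others were not called.

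Of 13 measured genes known to respond to low oxygen, 8 were called higher in OBGF400 and 1 lower, where 22.7% of all named genes were higher and 35.4% lower. Their median difference was 1.16, against -0.002 over all named genes. None of the 13 was at the floor in both lines, whereas 1047 of the 6765 named genes were. LOX, a collagen cross-linking oxidase, had signals of 12.64, 12.80 and 12.91 in OBGF400 and 7.07, 6.83 and 7.49 in PK15. The LOX difference was 5.66 (limma adjusted p = 6.7e-05, n = 3 per line). CA12, a carbonic anhydrase, was higher by 4.12 (2.73 with 32 added) and ANGPTL4, a lipase inhibitor, by 3.45. ANKRD37 was the gene called lower (-1.55). These calls rest on the brightest probe set of each gene, and other sets could differ. For CA9 the brightest set was not called (-1.68) and another was lower (-4.4). For VEGFA the brightest set was higher (2.18) and another lower (-0.65). For P4HA2 the brightest set was not called (0.44) and another was higher (1.01). The calls were 11 higher and 1 lower after hybridization control scaling, and 9 higher and 3 lower after median centring. After poly-A control scaling they were 6 higher and 4 lower, and the median was 0.3. LOX is also abundant in matrix-producing cells, and the mesenchymal markers given above moved with it, whose part was not tested.

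**Figure D5:**
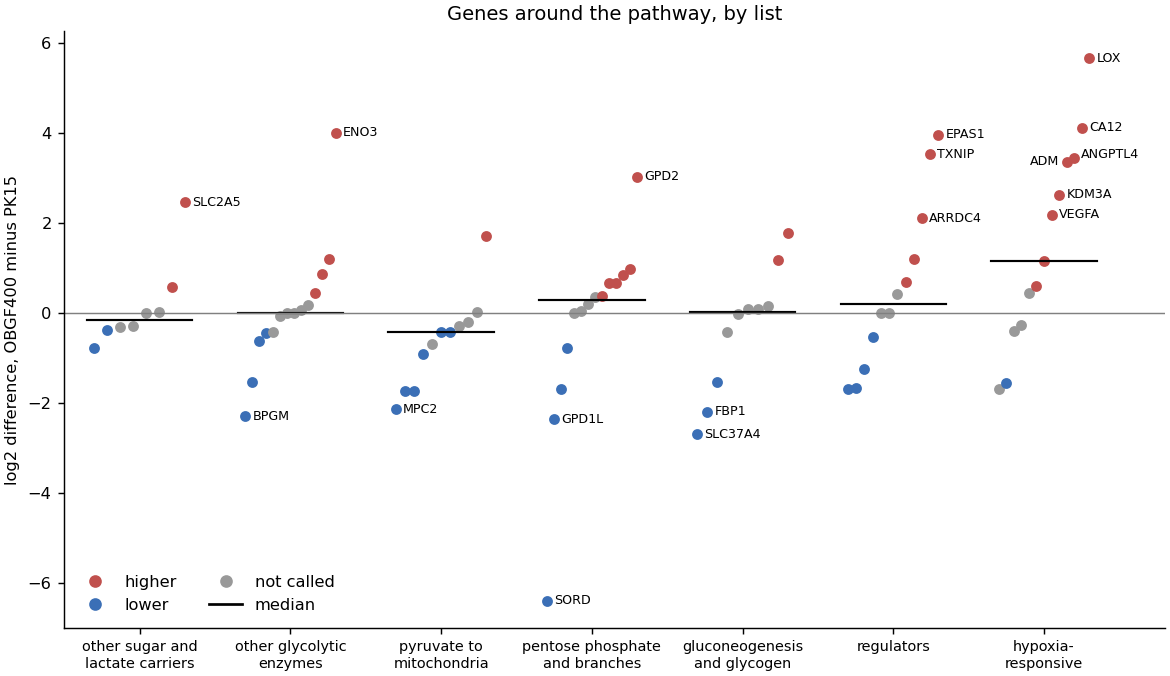
Log2 difference, OBGF400 minus PK15 (y axis), of each measured gene in 7 lists around the pathway, shown by its brightest probe set, with a black line at each list's median. Red points were called higher, blue points lower and grey points were not called, and names are given for called genes that differ by more than 2. The hypoxia-responsive list has the highest median (1.16) and the pyruvate list the lowest (-0.43).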

How the data were processed

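The authors deposited a table of log2 signals, 1 for each array and probe set. The log2 scale was inferred from the range of the values. Per the submitters' processing notes, affy was used. Its settings, the normalization and a genome build were not given in the sources used here, so no coordinates are printed. The table held 24123 probe sets, of which 124 controls were left out of the tests. Of the 23999 tested, 10069 had 1 symbol in the platform annotation, 198 several and 13732 none. Where a gene had several probe sets, the brightest by the mean of all 6 arrays stood for it.

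The lines were compared with limma 3.58.1 in R 4.3.3 (lmFit and eBayes, two-sided, Benjamini-Hochberg adjustment over all tested probe sets). The fit was tested on simulated arrays in which 200 of 23999 probe sets were changed. It recovered 19.4% of true log2 differences of 0.5, 71.6% of those of 1 and 93.9% of those of 2. Of the probe sets called there, 10.9% were false, which is above the share set by the threshold of 0.05. The changed sets were drawn from those with a mean more than 2 above the floor. In the data 4846 probe sets were called higher and 5214 lower, far more than the 200 changed there. The simulated shares therefore need not hold for this comparison. The number of arrays limits the precision. Figures were drawn in Python 3.11.15.

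Named were all members, paralog pairs, the called genes that rose most and fell most in each list (at most 3 each way), and pathway genes whose called probe sets differ in sign. The members and lists were chosen with earlier results of these data known. Alternatives were 4 other normalizations, 2 filters on mean signal (the 25th percentile and the median), a trended and robust variance, 32 added to linear values, a threshold of 0.01, a replicate block, gene means, and leaving out each array. Genes at the floor in both lines were left out of the counts of members and lists under alternatives. They were kept in the counts over all named genes and all probe sets.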

Additional observations from a re-analysis of the deposited data

How the results depend on the processing

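The counts of called members, and those of the 7 surrounding lists together, kept within 1.5 times of their main values under all alternatives run for them except the 2 control scalings, which use 27 hybridization and 18 poly-A control probe sets. Over the whole table, with those at the floor in both lines included, median centring raised the lower calls from 5214 to 14431 probe sets and from 2394 to 3954 genes. Hybridization control scaling gave 5 of the studied genes higher and 1 lower (3 and 3 as deposited), and 51 genes of the lists higher and 15 lower (28 and 24). With the poly-A controls these were 1 and 6, and 14 and 47. Leaving out single arrays gave 3 and 3, 26 to 28 list genes higher and 19 to 25 lower. The directions turned by hybridization control scaling were those of PGK1 (0.0956), PKM (0.72), LDHB (0.22), GAPDH (0.39), PFKP (0.19), SLC16A3 (0.44) and SLC2A2 (0.0403), and by poly-A control scaling those of HK1 (-0.72), LDHA (-0.45), BSG (-0.28) and UGP2 (-0.0109). PKM ranged from -0.218 to 0.00659 when single arrays were left out, the latter without OBGF400 replicate 1. By construction these scalings shift all genes alike. No paralog ratio changed direction under its alternatives.

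The replicate numbers did not pair the arrays, with correlations of same-numbered deviations of 0.06, 0.01 and 0.02 over 12676 probe sets. With the replicate block, SLC2A3 (5.34, limma adjusted p up to 0.00285 over its alternatives), PFKL and the other calls of the studied genes stayed, with 3 higher and 3 lower. FBP1, PFKP, BSG, SLC16A3 and PDP2 lost theirs. Over all probe sets the block gave 4176 higher and 4485 lower, against 4846 and 5214. Low signals limit the differences of HK3, SLC2A2 and PRKAA2, and PKM could be read on 1 of its 2 probe sets.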

Other observations

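Genes of glucose release and glycogen went both ways, with 2 of 10 measured higher, 3 lower and 5 not called, and a median of 0.03. After hybridization control scaling 6 were higher and 3 lower (median 0.85), and after poly-A control scaling 1 was higher and 8 lower (median -0.83). GYS1, the muscle glycogen synthase, had signals of 7.24 ± 0.19 against 5.47 ± 0.18 in PK15 (SD, n = 3) and rose by 1.77 (limma adjusted p = 0.000845). PGM1, which links glucose 1-phosphate and glucose 6-phosphate, was higher by 1.18, and 0.33, not called, after poly-A control scaling. PGM2, a phosphopentomutase, was lower (-1.54). SLC37A4, the glucose 6-phosphate carrier of the endoplasmic reticulum, was lower by both of its probe sets, at -2.7 and -6.43. FBP1, a gluconeogenic phosphatase, was lower (-2.2), but this was -0.56 and not called with 32 added (limma adjusted p = 0.0894), and the call ended when any 1 OBGF400 array was left out (-2.21 to -2.19).

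Probe sets of a gene did not always give the same size or direction. For HIF1A, the alpha subunit of the main hypoxia-inducible factor, the brightest set read 14.21, 14.16 and 14.19 in OBGF400 and 13.01, 12.87 and 13.09 in PK15, a difference of 1.2. A further HIF1A set differed by 5.14 with a PK15 range of 5.41 to 7.23. For VEGFA, the called sets differed by 2.18 and 3.86 in one direction and by -0.65 in the other. For CA9, the brightest set was not called (-1.68, limma adjusted p = 0.125) and another was lower (-4.4). HIF1A, CA9 and P4HA2 were chosen after their values were seen.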
